A study of Rattus norvegicus with 4 samples.

Results

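FOXOA3, a FOXO1 protein made constitutively active, was compared with FOXOA3-mDBD, the same protein with a defective DNA-binding domain, in rat granulosa cells kept with follicle-stimulating hormone (FSH). The measurements were those of the 20826 probe sets, out of 31099 on the array, that carried exactly 1 gene symbol and were not controls. They stand for 14217 genes, each read by its brightest probe set, of which 10092 were measured in the comparison. The study holds 4 Affymetrix arrays of total RNA, and 2 of them make up this comparison, 1 for each vector. All cells were primary granulosa cells from immature female Sprague-Dawley rats aged 23 to 25 days that had received estradiol. They were plated without serum on dishes that had a coat of 1% serum, infected for 4 h and then cultured for 24 h. The FOXOA3 FSH cells carried the FOXOA3 adenovirus and the FOXOA3-mDBD FSH cells the FOXOA3-mDBD adenovirus, both with FSH at 100 ng/ml. The GFP FSH cells carried a green fluorescent protein vector with the same FSH, and the GFP vehicle cells that vector with vehicle. The sources used here do not give the number of animals or cultures behind an array, the amount of virus, the species of the transgenes or the residues changed in them.

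FOXO1 is a forkhead factor of the insulin and growth factor pathway. The kinase Akt phosphorylates it and drives it out of the nucleus, and FSH activates that kinase in granulosa cells, so that a form without the phosphorylation sites stays nuclear. The forkhead domain makes the direct contact with DNA at the consensus GTAAACA, but FOXO proteins also act through partner proteins, for which this contact is not always needed. In the follicle, granulosa cells answer FSH by making estrogen, inhibin, cholesterol and the luteinizing hormone receptor.

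Signals are MAS5 intensities on a linear scale, and 100.5, the pooled median of all signals but those of controls, served as the floor. Below it a signal was set to the floor, so that a fold against a gene at the floor is a lower bound, written "at least". A gene counts as measured if the brighter of the 2 signals was above the floor, and as higher or lower if the signals were 2-fold or more apart. Where 4 signals of a gene are listed, they stand in the order GFP vehicle, GFP FSH, FOXOA3 with FSH, FOXOA3-mDBD with FSH, and folds are FOXOA3 FSH against FOXOA3-mDBD FSH unless another comparison is named. With 1 array a side no difference has a replicate check and no p-value was computed.

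With FOXOA3, 52.8% of probe sets were above the floor, and with the mutant 49.7%. The poly-A spike transcripts, bacterial RNAs added before labelling, averaged 22.6 (geometric mean) with FOXOA3 and 21.4 on GFP vehicle, but 539 with the mutant and 395 on GFP FSH. The form of FOXO1 and the spike level therefore cannot be told apart in this comparison, and no value of it within 1 spike level exists. Hybridisation controls were at 1224 with FOXOA3 and 2855 with the mutant, and the ratio of 3' to 5' signal was 9.79 and 10.7 for beta-actin and 2.84 and 3.15 for GAPDH. Of the granulosa markers, Foxl2, Inha, Amhr2, Nr5a2 and Cyp19a1 were above the floor on both arrays, and Esr2 was below it on all 4. No value is given here for Fshr, another of these markers.

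Of the 10092 measured genes, 1913 (19.0%) were 2-fold or more higher with FOXOA3 and 932 (9.24%) were lower, that is, higher with FOXOA3-mDBD. The other 7247 genes (71.8%) lay within 2-fold. At 4-fold the counts were 303 higher and 217 lower, and at 8-fold 43 and 72, so that the order of the counts turned among the largest differences. The dimmer signal was at the floor for 320 of the higher and 132 of the lower genes. The median log2 ratio was 0.21, with an interquartile range of -0.36 to 0.82, and list medians below are to be read against it. Shares of list members that were higher or lower are likewise to be read against 19.0% and 9.24%. Of all genes 2-fold apart, 67.2% were higher with FOXOA3, but the split was 53.2% with the floor at the 75th percentile, 49.9% after centring each array on its median and 44.2% after loess over signal.

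The excess of higher genes lay among genes of low and middle signal. Measured genes were divided into 3 equal bins by mean signal of the 2 arrays, at 337.9 and 1155.6. Their median log2 ratios were 0.38, 0.34 and -0.09 from the dim to the bright bin. In the dim bin 784 genes were higher and 213 lower, and in the bright bin 321 were higher and 411 lower. Of 2568 genes with 2 or more measured probe sets, 1830 (71.3%) had ratios of 1 sign, and the median SD between probe sets of a gene was 0.38 on the log2 scale. Another probe set was also 2-fold higher for 189 of 451 higher genes that had one measured (41.9%), and also 2-fold lower for 188 of 288 lower genes (65.3%). Probe sets of a gene share the arrays, so this describes the probes and not the cultures.

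**Figure D1:**
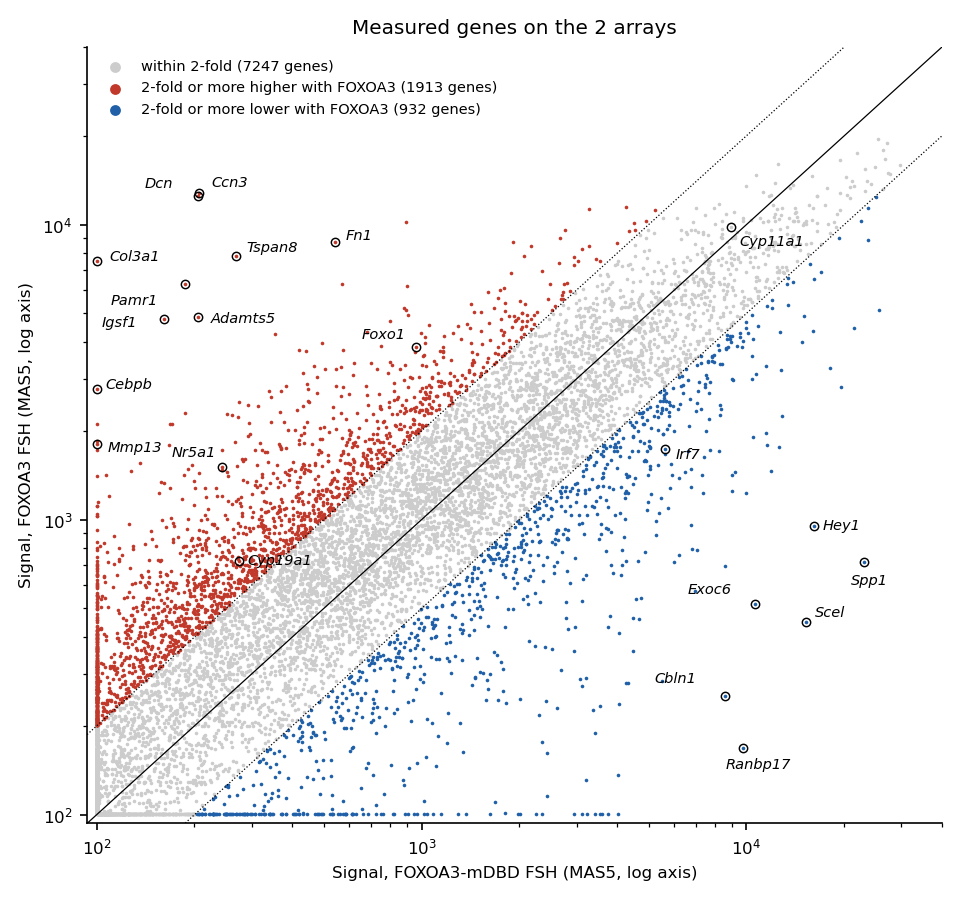
Signal on FOXOA3 FSH (vertical, log axis) against signal on FOXOA3-mDBD FSH (horizontal, log axis) for 10092 measured genes, 1 point a gene, with the line of equality solid and 2-fold dotted. More genes lie above the upper dotted line (1913) than below the lower one (932), and Ranbp17, Scel and Spp1 lie far below it.

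Set against the arrays with the GFP vector, the mutant stood farther from GFP FSH than FOXOA3 did. FOXOA3 FSH against GFP FSH had 1105 of 9941 measured genes higher (11.1%) and 695 lower (6.99%). FOXOA3-mDBD FSH against GFP FSH had 1221 of 9748 higher (12.5%) and 1865 lower (19.1%). Both use the GFP FSH array, so their values are given side by side and not related to each other. FOXOA3 FSH against GFP vehicle, a comparison chosen after the data had been seen, had 527 of 9904 genes higher (5.32%) and 397 lower (4.01%). Both arrays of that comparison had low spike signals, and both of FOXOA3-mDBD FSH against GFP FSH had high ones. FOXOA3 FSH against GFP FSH crosses the spike levels, and the part of this in the counts was not tested.

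Genes higher with FOXOA3 than with the mutant overlapped with those that were higher without FSH. GFP vehicle against GFP FSH shares no array with the FOXOA3 and FOXOA3-mDBD pair, although both cross the spike level in the same direction. Of 1875 higher genes measured in both, 528 (28.2%) were also 2-fold higher on GFP vehicle than on GFP FSH, and these were 50.4% of the 1047 genes higher on GFP vehicle, which made up 11.3% of the 9263 genes measured in both. Another 97 (5.17%) were lower on GFP vehicle. In all, 1063 of 9578 measured genes were higher on GFP vehicle (11.1%) and 655 lower (6.84%). Of 781 genes lower with FOXOA3, 79 (10.1%) were lower on GFP vehicle, or 12.5% of the 634 such genes, and 64 (8.19%) were higher. Across the 9263 genes, which are not independent, Pearson's r between the log2 ratios was 0.26 and Spearman's rho 0.30.

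Matrix genes made up much of the top of the list. Decorin (Dcn), a small proteoglycan that binds collagen fibrils, had signals of 624, 485, 12504 and 206. It was far brighter on FOXOA3 FSH than on the other 3 arrays, 60.8-fold higher there than on FOXOA3-mDBD FSH and 20.0-fold higher than on GFP vehicle. Col3a1, a fibrillar collagen, had signals of 2607, 170.0, 7556 and 82.0. The arrays without FSH or with FOXOA3 were bright and the mutant was under the floor, a difference of at least 75.2-fold. The matricellular protein Ccn3 had signals of 11613, 1761, 12767 and 206. GFP vehicle and FOXOA3 FSH were alike and the mutant was 61.9-fold below FOXOA3. Fibronectin (Fn1) had 5224, 389, 8740.5 and 544, again bright on GFP vehicle and FOXOA3 FSH and 16.1-fold lower with the mutant, which was near GFP FSH. Adamts5, a protease that cuts proteoglycans, had 9318, 714, 4877 and 205 and was 23.8-fold higher with FOXOA3, with GFP vehicle brightest of all. Mmp11, a stromal metalloprotease, differed from these in being high on GFP FSH as well, with 3054, 3224, 2109 and 171. The mutant array alone was dim, at 12.3-fold below FOXOA3.

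A second set was bright on FOXOA3 FSH and close to or under the floor on the other arrays. Tspan8, a membrane tetraspanin, had signals of 136, 23.7, 7837 and 269. It was 29.2-fold higher than with the mutant, 57.6-fold higher than on GFP vehicle and at least 78.0-fold higher than on GFP FSH. Igsf1, a membrane glycoprotein of the immunoglobulin superfamily, had 167, 148, 4800.5 and 162, with FOXOA3 29.7-fold above the mutant. Igsf1 was nearly level on the other 3 arrays, whereas Tspan8 with the mutant was itself at least 2.67-fold above GFP FSH. The secreted WNT antagonist Sfrp2 had 63.9, 22.3, 2111 and 31.7, at least 21.0-fold higher. The collagenase Mmp13 had 40.1, 11.8, 1805 and 83.5, at least 18.0-fold higher. Fgl1, a secreted fibrinogen-like protein, was at least 14.0-fold higher, Dmrtc1c1 at least 17.1-fold and the kelch-like protein Klhl4 at least 11.1-fold, with the other 3 arrays under the floor for all 3 genes. Cdo1 was less extreme. This dioxygenase that starts cysteine breakdown had 708, 136, 2298 and 187 and was 12.3-fold above the mutant and 3.25-fold above GFP vehicle.

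The bZIP transcription factor Cebpb, which takes part in luteinization, had 848, 519.9, 2774 and 99.1. It was present on all arrays but that of the mutant, where it was just under the floor, at least 27.6-fold below FOXOA3. Others were bright without FSH and with FOXOA3 but low on GFP FSH and with the mutant. Pamr1 had 4606, 72.7, 6284 and 188, a difference of 33.5-fold. Aminopeptidase N (Anpep) had 2594, 52.1, 2114 and 168, 12.6-fold apart, and the UDP-glucose receptor P2ry14 673, 99.8, 1852 and 69.5, at least 18.4-fold apart. For these 3 genes FOXOA3 FSH lay nearer to GFP vehicle than to GFP FSH. GFP vehicle and FOXOA3 FSH are also the arrays with little spike signal, whose part in this pattern was not tested. The endoplasmic reticulum chaperone Hyou1 was 13.2-fold higher and the interferon-inducible membrane protein Ifitm1 12.1-fold, and both were also lower on GFP FSH than on GFP vehicle.

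**Figure D2:**
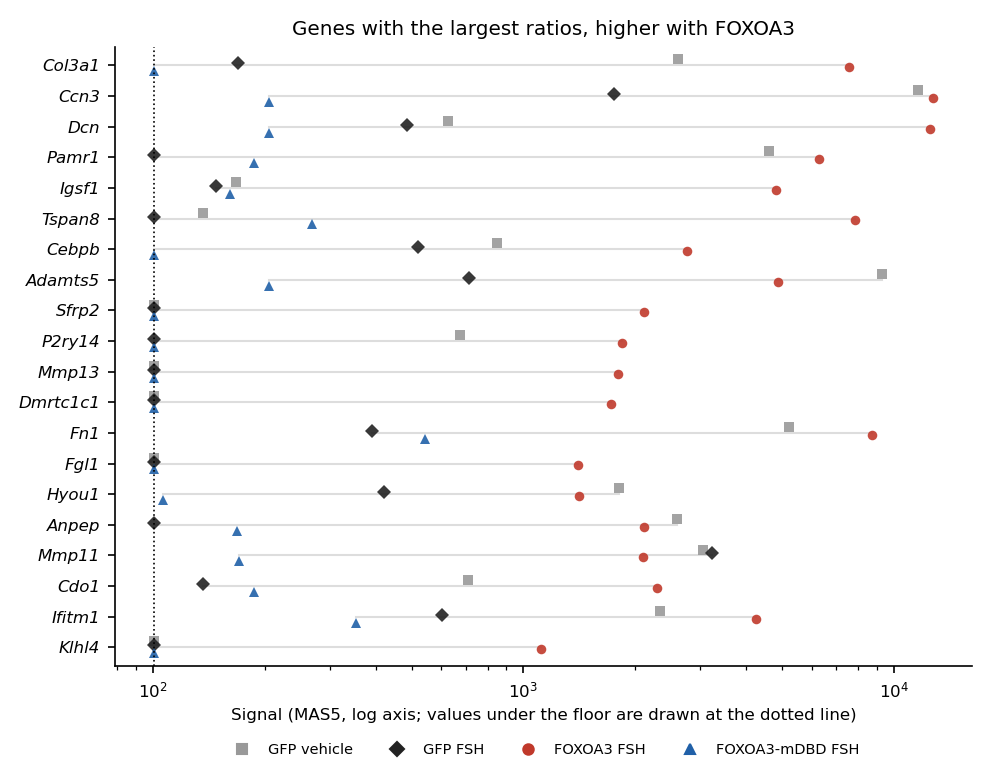
Signals on the 4 arrays (log axis, MAS5 intensity) of the 20 genes with the largest ratios in favour of FOXOA3, 1 point an array, with the floor of 100.5 drawn as a dotted line (signals under it are drawn on it). FOXOA3 FSH is bright for every gene shown and FOXOA3-mDBD FSH low, while GFP vehicle is near FOXOA3 FSH for some genes, such as Ccn3 and Pamr1, and low for others, such as Tspan8 and Igsf1.

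The promoters of named genes were searched for the FOXO consensus GTAAACA on both strands of the RefSeq windows of the GRCr8 build, which run from 250 bases before a gene's start to 50 after it. Of 209 named genes 163 had a window and 7 held the consensus: Cald1, Igfbp6, Mbtps1, Mmp13, Pik3ip1, Top2a and Tspan8. All 7 were higher with FOXOA3. The named genes were chosen in large part for their ratios, so that this count is a description and their direction is not a result about the consensus. Of all measured genes with a window, 3.12% of the higher and 3.14% of the lower ones held it. The 250 bases before the start are shown for 4 of them, genes of matrix, membrane, actin and growth factor binding whose match lies in that stretch, written 5' to 3' on the strand of the gene, with the match in capitals (TGTTTAC where it is on the other strand). Tspan8 (chr7:53330937-53331186, plus strand) has it with the first base 83 bases before the start, Mmp13 (chr8:12782579-12782828, plus strand) at 114, Cald1 (chr4:64233006-64233255, plus strand) at 87 and Igfbp6 (chr7:135154669-135154918, plus strand) at 221.
Tspan8: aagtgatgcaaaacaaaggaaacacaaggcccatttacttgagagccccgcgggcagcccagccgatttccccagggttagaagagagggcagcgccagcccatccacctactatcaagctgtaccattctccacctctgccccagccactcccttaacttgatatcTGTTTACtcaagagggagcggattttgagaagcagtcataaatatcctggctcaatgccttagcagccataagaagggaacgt
Mmp13: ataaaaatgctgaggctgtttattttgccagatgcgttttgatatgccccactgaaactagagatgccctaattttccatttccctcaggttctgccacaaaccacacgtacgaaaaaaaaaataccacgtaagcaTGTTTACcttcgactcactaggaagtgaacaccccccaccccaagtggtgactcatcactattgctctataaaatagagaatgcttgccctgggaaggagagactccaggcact
Cald1: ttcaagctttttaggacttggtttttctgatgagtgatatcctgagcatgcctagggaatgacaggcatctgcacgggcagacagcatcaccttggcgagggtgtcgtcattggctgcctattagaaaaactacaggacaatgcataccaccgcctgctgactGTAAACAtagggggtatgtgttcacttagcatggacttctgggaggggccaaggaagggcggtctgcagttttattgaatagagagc
Igfbp6: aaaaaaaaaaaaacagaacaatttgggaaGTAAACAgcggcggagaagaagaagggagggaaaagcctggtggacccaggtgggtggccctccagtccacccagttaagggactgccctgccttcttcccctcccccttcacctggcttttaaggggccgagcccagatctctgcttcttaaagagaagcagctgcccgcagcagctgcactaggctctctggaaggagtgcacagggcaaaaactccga
A match of these letters describes the window and is not a shown binding site.

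Over all genes the consensus did not set the classes apart by much. Windows matched 8451 of the 10092 measured genes (83.7%), and 210 of these (2.48%) held GTAAACA, against 1042 of all 27457 RefSeq windows (3.80%). It was present for 49 of 1571 genes higher with FOXOA3 (3.12%), 24 of 765 lower genes (3.14%) and 137 of 6115 genes within 2-fold (2.24%). At 4-fold the numbers were 11 of 226 higher genes (4.87%) and 1 of 167 lower genes (0.599%). The median log2 ratio was 0.21 for genes with the consensus and 0.21 for those without. The SREBP element TCACNCCAC was in 0.764% of the windows of higher genes, 0.784% of lower genes and 1.08% of all measured genes (1.15% of all RefSeq windows). The core of the interferon-stimulated response element was in 2.29% of higher, 3.66% of lower and 2.99% of all measured genes (3.79% of all windows). The site of the nuclear receptors SF-1 and LRH-1, AAGGTCA, was in 2.61%, 2.88% and 2.71% (4.37% of all windows). The RBPJ site of the Notch pathway, GTGGGAA, was in 6.43%, 6.54% and 6.18% (6.14% of all windows). Each was searched on both strands. At 4-fold the shares of these other motifs also differed between higher and lower genes. They were 1.77% and 0.599% for the SREBP element and 2.65% and 4.19% for the interferon element. For AAGGTCA they were 1.77% and 4.79%, and for GTGGGAA 8.85% and 4.19%. The 4-fold shares, with those of GTAAACA, rest on 1 to 20 genes each.

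Genes higher with the mutant had another pattern: for most of the leading ones the other 3 arrays were dim or under the floor. Ranbp17, a nuclear transport receptor, had signals of 98.2, 97.3, 168 and 9745, 58.0-fold lower with FOXOA3 than with the mutant. Sciellin (Scel), a precursor of the cornified envelope of epithelia, had 2.7, 3.0, 451 and 15268. FOXOA3 was above both GFP arrays and the mutant was 33.8-fold above FOXOA3. Osteopontin (Spp1), a secreted phosphoprotein of matrix and bone, had 452, 575, 721 and 22972, with the mutant 31.9-fold above FOXOA3 and 40.0-fold above GFP FSH. Hey1, a repressor switched on by Notch, had 518, 144, 955 and 16138. It was 16.9-fold higher with the mutant, although FOXOA3 itself was 6.62-fold above GFP FSH. The synaptic organiser Cbln1 had 978, 128, 253 and 8578, with GFP vehicle above FOXOA3 and the mutant 33.9-fold above FOXOA3. The exocyst subunit Exoc6 had 255, 184, 518 and 10594 and was 20.5-fold higher with the mutant.

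Ion channels and receptors of neurons were among the others. The sodium channel Scn1a had 65.3, 45.9, 17.1 and 4024, the dopamine receptor Drd4 63.5, 74.7, 69.8 and 3745, and the forkhead factor Foxq1 20.4, 1.7, 4.9 and 3591. Each was under the floor on 3 arrays and bright with the mutant, by at least 40.0-fold for Scn1a, at least 37.3-fold for Drd4 and at least 35.7-fold for Foxq1 against FOXOA3. The same held for Tox3, an HMG-box protein, by at least 35.2-fold, the hair follicle protein Tchh by at least 33.9-fold, the G protein-coupled receptor Gpr83 by at least 32.1-fold, LOC100911719 by at least 31.0-fold and Klhl14 by at least 29.4-fold. Ly6l was 29.4-fold higher with the mutant, the desmosomal protein Perp 24.4-fold, the microtubule linker Hook1 21.0-fold, the sodium channel Scn7a 17.9-fold and the tetraspanin Tspan33 17.1-fold. The potassium channel Kcnk2 had 678, 159.8, 189.6 and 3416, so that it was present on GFP vehicle and 18.0-fold higher with the mutant than with FOXOA3. Slfn4, of the interferon-inducible Schlafen family, had 17.4, 275, 285 and 5489, 19.3-fold higher with the mutant.

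**Figure D3:**
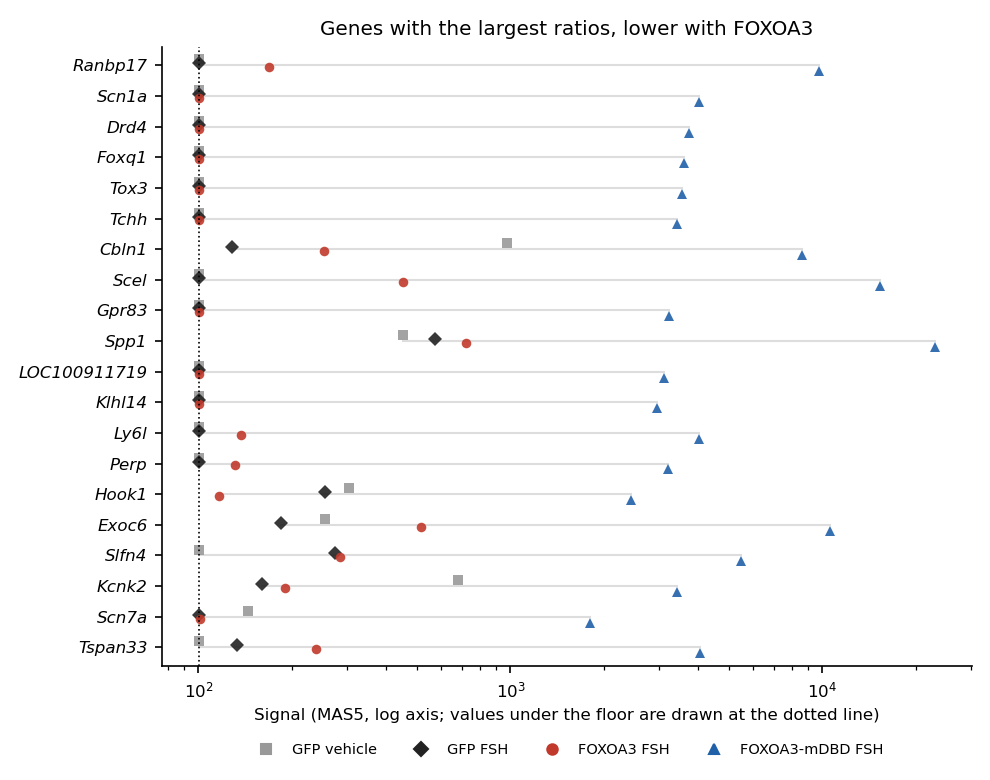
Signals on the 4 arrays (log axis, MAS5 intensity) of the 20 genes with the largest ratios in favour of FOXOA3-mDBD, 1 point an array, with the floor of 100.5 drawn as a dotted line (signals under it are drawn on it). FOXOA3-mDBD FSH lies above the other 3 arrays for every gene shown, and for several, such as Scn1a, Drd4 and Foxq1, those 3 are under the floor.

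Foxo1 itself had 8149, 2862, 3834 and 961 on its brightest probe set, 3.99-fold higher with FOXOA3 than with the mutant and highest on GFP vehicle. Its other measured probe set had a signal of 70.1 with FOXOA3 and 100.6 with the mutant, so that both stood at the floor. The part of the transcript each one reads, and whether it reads the transgene, is not stated in the sources, so neither checks the vectors. Foxo3, a relative that shares FOXO target sites, had 1972, 2263, 1574 and 1159, 1.36-fold apart. Under at least 1 alternative setting of the processing, Foxo1 had a ratio below 2-fold.

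Among FOXO target genes, 13 of 36 measured members (36.1%) were 2-fold or more higher with FOXOA3 and 3 (8.33%) lower, against 19.0% and 9.24% of all measured genes, with a median log2 ratio of 0.59 against 0.21. The median was 0.83 for FOXOA3 FSH against GFP FSH and 0.26 for FOXOA3-mDBD FSH against GFP FSH, comparisons that share the GFP FSH array. The list median lay above that of all genes by 0.32 to 0.58 over the alternative settings. Klf2, a Kruppel-like factor, had 308, 156, 668 and 144, with FOXOA3 brightest and 4.65-fold above the mutant, which lay near GFP FSH. Its relative Klf4 had 2955, 1583, 3983 and 1027, 3.88-fold apart. Pik3ip1, an inhibitor of PI3-kinase whose promoter window also held the FOXO consensus, had 3581, 338, 1426 and 322. GFP FSH and the mutant were alike there and FOXOA3 was 4.43-fold above the mutant. Selenop, the carrier of selenium in plasma, had 1551, 13057, 8711 and 1909, and the mutant alone was dim beside the other FSH arrays, 4.56-fold below FOXOA3. The cyclin-dependent kinase inhibitor Cdkn1a had 3904, 1436, 5657 and 1721, 3.29-fold apart. Sesn3, a stress-inducible inhibitor of mTORC1, had 277, 57.4, 459 and 130.3, 3.52-fold apart. In both the FOXOA3 array was the brightest of the 4. The 2-fold difference of Cdkn1a, Klf2 and Sesn3 was not held under every alternative setting.

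Other targets differed from GFP FSH with the mutant as well. Pdk4, the kinase that shuts down pyruvate dehydrogenase, had 546, 34.4, 1513 and 617. FOXOA3 was 2.45-fold above the mutant, but the mutant was itself at least 6.14-fold above GFP FSH. Irs2, an adaptor of the insulin receptor, ran the other way with 1896, 287, 1599 and 3838, 2.40-fold higher with the mutant, which was 13.4-fold above GFP FSH against 5.58-fold for FOXOA3. Sesn1 was 2.12-fold higher with the mutant. Smaller differences in favour of FOXOA3 were those of the mitochondrial superoxide dismutase Sod2 at 2.55-fold, the autophagy kinase Ulk1 at 2.47-fold, the proapoptotic Bbc3 at 2.50-fold and the translation inhibitor Eif4ebp1 at 2.32-fold. Of the genes just named, Bbc3, Eif4ebp1, Pdk4, Sesn1 and Ulk1 came out below 2-fold in 1 or more alternative settings.

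Of the transcription factors that define granulosa cells, several were dim on the mutant array. Foxl2, the factor that keeps follicle cells female, had 5546, 3536, 4297 and 994, 4.32-fold higher with FOXOA3. Gata4, a partner of steroidogenic promoters, had 1992, 3762, 1529 and 358, 4.27-fold higher. Nr5a1 (SF-1), the nuclear receptor that drives steroid enzyme genes, had 1214, 1800.2, 1506 and 243, 6.20-fold higher. In all 3 the mutant array was the lowest of the 4. Nr5a2 (LRH-1), its relative, was not so, with 2210.2, 10820.2, 4195 and 3736, 1.12-fold apart, and its 3 probe sets differed in sign. In the list of granulosa identity and follicle hormones 7 of 20 measured genes (35.0%) were higher and 2 (10.0%) lower with FOXOA3, with a median of 0.60. The medians against GFP FSH were -1.33 for FOXOA3 and -1.85 for the mutant. Inha, the inhibin alpha chain, had 9571, 29569, 11433 and 4267, 2.68-fold higher with FOXOA3. Inhba, the beta chain shared with activin, had 10189, 25593, 12609 and 11911, 1.06-fold apart, and another of its probe sets was lower with FOXOA3 by 2.48-fold. The activin-binding protein follistatin (Fst) was 1.64-fold higher and the receptor of anti-Mullerian hormone (Amhr2) 1.98-fold. Kitlg, the signal to the Kit receptor of the oocyte, had 174, 297, 404 and 1105 and was 2.74-fold higher with the mutant. Alternative settings put Kitlg below 2-fold in at least 1 case.

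Most of the named hormone receptors and steroid enzymes were below GFP FSH with both FOXO1 forms, and several were lower with the mutant than with FOXOA3. Aromatase (Cyp19a1), which makes estrogen, had 35.0, 13042, 726 and 275. Both FOXO1 forms were far below GFP FSH, and FOXOA3 was 2.64-fold above the mutant. The luteinizing hormone receptor Lhcgr had 20.0, 4402, 497 and 186, 2.68-fold apart, and the prolactin receptor Prlr 97.4, 5042, 1210.5 and 925, 1.31-fold apart. The measured probe sets of Prlr differed in sign, with log2 ratios from -0.25 to 0.55. Star, which brings cholesterol into mitochondria, had 247, 12092, 5854 and 2976, just under 2-fold at 1.97-fold. Cyp11a1, which cleaves the cholesterol side chain, had 174, 22700.1, 9809 and 8979, 1.09-fold apart, and Hsd17b1, which makes estradiol from estrone, 725, 4564, 1041 and 961, 1.08-fold apart. These were nearly equal on the FOXO1 arrays. Hsd3b1, which makes progesterone, had 8119.9, 25199.9, 14547 and 20311, 1.40-fold higher with the mutant. Of the steroidogenesis genes, 6 of 16 (37.5%) were at least 2-fold higher with FOXOA3 and 0 at least 2-fold lower, with a median of 0.66. Of all measured genes 19.0% were higher and 9.24% lower. The higher members besides Nr5a1 and Cyp19a1 were the mitochondrial protein Tspo at 2.34-fold, the P450 reductase Por at 2.33-fold, the glucocorticoid enzyme Hsd11b1 at 2.64-fold and the repressor Nr0b1 at 2.44-fold. Against GFP FSH the list medians were -0.90 with FOXOA3 and -1.53 with the mutant. Not all alternative settings kept Cyp19a1, Hsd11b1, Lhcgr, Nr0b1 and Por past 2-fold.

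**Figure D4:**
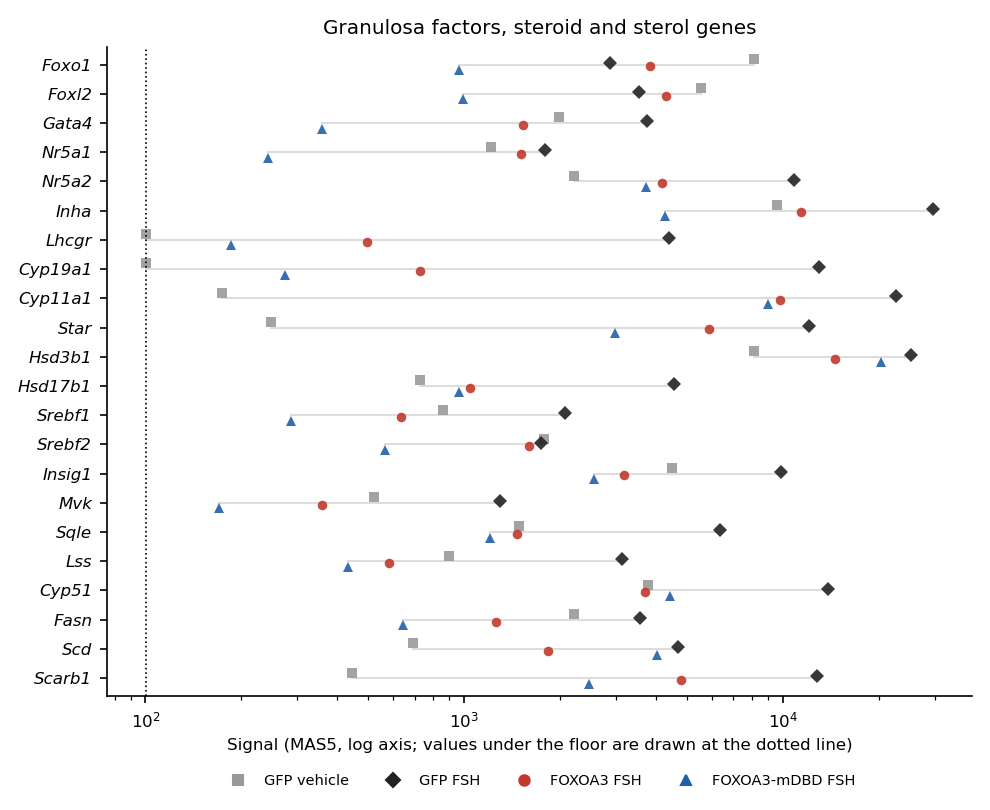
Signals on the 4 arrays (log axis, MAS5 intensity) of granulosa factors, receptors, steroid enzymes and sterol genes, 1 point an array, with signals under the floor of 100.5 drawn on the dotted line. FOXOA3-mDBD FSH is the lowest array for Foxl2, Gata4 and Nr5a1, while Cyp11a1 and Sqle have nearly equal signals on the arrays with either FOXO1 form.

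Cholesterol biosynthesis genes differed little between the vectors. 1 of 18 measured members (5.56%) was 2-fold or more higher with FOXOA3 and 0 lower, with log2 ratios from -0.33 to 1.08, and the median of 0.26 was close to that of all genes, above it by 0.01 to 0.10 over the alternative settings. Their medians against GFP FSH were -1.84 with FOXOA3 and -2.19 with the mutant, on a shared GFP FSH array. Squalene epoxidase (Sqle) had 1489, 6353, 1464 and 1208, 1.21-fold apart, and lanosterol synthase (Lss) 895, 3139, 580.3 and 434, 1.34-fold apart. Another Lss probe set, dim with both FOXO1 forms, had the opposite sign, with a log2 ratio of -0.37. The lanosterol demethylase Cyp51 had 3782, 13858, 3709 and 4417, 1.19-fold higher with the mutant. In these 3 genes GFP FSH was the bright array and the other 3 were lower. The higher member was mevalonate kinase (Mvk), with 522, 1292, 359 and 169.6, 2.12-fold apart. Mvk did not pass 2-fold with 1 or more of the alternative settings.

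More of the regulators of that pathway were 2-fold apart than of its enzymes. Of the SREBP regulators, 5 of 12 measured genes (41.7%) were higher and 0 lower with FOXOA3, with a median of 0.46. Among all measured genes 19.0% were higher and 9.24% lower. Srebf2, the factor that drives sterol enzyme genes, had 1781, 1738, 1597 and 563, with the mutant alone low, 2.84-fold below FOXOA3. Srebf1, which drives fatty acid genes, had 856, 2068, 634 and 285, 2.22-fold apart, and Scap, which escorts both to the Golgi, 1484, 1283, 1608 and 674, 2.39-fold apart. Nfya, a subunit of the CCAAT-binding cofactor, had 1799, 601, 1792 and 584, high on GFP vehicle and FOXOA3 FSH and 3.07-fold lower on the mutant array. The protease Mbtps1, which cuts SREBP, was 2.20-fold higher with FOXOA3, and Insig1, which holds SREBP back, 1.24-fold. Under at least 1 alternative setting of the processing, Mbtps1, Nfya, Scap, Srebf1 and Srebf2 had a ratio below 2-fold.

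For fatty acid and glycerolipid synthesis, 7 of 28 (25.0%) were at least 2-fold higher with FOXOA3 and 1 (3.57%) at least 2-fold lower, with a median of 0.29. The shares of all measured genes were 19.0% higher and 9.24% lower. Fatty acid synthase (Fasn) had 2218, 3554, 1256 and 641, 1.96-fold apart, and the stearoyl desaturase Scd 692, 4676, 1829 and 4023, 2.20-fold higher with the mutant. The desaturase relative Fads3 was 3.67-fold higher with FOXOA3, the phosphatidate phosphatase Lpin1 2.78-fold and the acyl-CoA synthetase Acsbg1 2.59-fold. Among genes of cholesterol uptake, storage and efflux, 4 of 19 measured members (21.1%) were 2-fold or more higher with FOXOA3 and 1 (5.26%) lower, a share higher near that of all genes, with a median of 0.36. Scarb1, the receptor for high-density lipoprotein, had 446, 12829, 4790.2 and 2463, 1.95-fold apart. Apoe, the apolipoprotein that carries cholesterol out of cells, had 669, 886, 1312 and 376, 3.49-fold higher, and its receptor Lrp1 was 3.23-fold higher. Cav1, the main protein of caveolae, was the lower member with 8001, 383, 3124 and 10669. GFP vehicle and the mutant were bright, and the mutant was 3.41-fold above FOXOA3. The lipid droplet protein Plin2 was 2.09-fold higher, but lower with FOXOA3 when its probe sets were averaged. The 2-fold difference of Acsbg1, Apoe, Lpin1, Lrp1 and Plin2 was not held under every alternative setting.

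Under the main setting, collagens had the highest median of the lists other than cell type markers. With the floor at the 25th percentile, matrix proteases and inhibitors (1.17) and contractile and actin genes (1.03) had higher medians than collagens (0.97). Of the collagens, 8 of 15 measured genes (53.3%) were higher and 0 lower with FOXOA3, with a median of 1.02, which lay above that of all genes by 0.72 to 1.25 over the alternative settings. All 15 of these collagens exceeded the floor with FOXOA3 but only 9 with the mutant, so the remaining ones could not favour the mutant. Among those 9, the 2-fold mark was passed by 4 in favour of FOXOA3 and by 0 in favour of the mutant. Their median was then 0.97, below the 1.23 of the NF-kB targets under the same restriction. Against GFP FSH the medians of the collagens were 0.18 with FOXOA3 and -0.80 with the mutant. Besides Col3a1, Col11a1, a minor fibrillar collagen, had 13943, 3299, 3247 and 544, nearly equal on the GFP FSH and FOXOA3 FSH arrays and 5.96-fold lower with the mutant. Col8a1 was 5.61-fold higher and Col14a1 at least 3.82-fold. In the proteoglycans and matrix glycoproteins 10 of 28 (35.7%) were at least 2-fold higher with FOXOA3 and 3 (10.7%) at least 2-fold lower, with a median of 0.60. More members were above the floor with FOXOA3 (26) than with the mutant (20). Of the 18 above it on both arrays, 7 were higher and 2 lower. The fibulin Efemp1 had 1150.2, 375, 1461 and 128, 11.4-fold higher, the laminin chain Lamc1 was 5.82-fold higher and tenascin C (Tnc) at least 6.07-fold. Lower members besides Spp1 were nidogen 2 (Nid2), a basement membrane linker, by at least 7.57-fold, and the proteoglycan asporin (Aspn) with 1099, 22.4, 3305 and 11514, 3.48-fold higher with the mutant. Of matrix proteases and inhibitors, 11 of 25 measured members (44.0%) were 2-fold or more higher with FOXOA3 and 3 (12.0%) lower, with a median of 0.78. Of the 19 above the floor on both arrays, 9 were higher and 2 lower. The higher members included the membrane protease Mmp14 at 3.50-fold, Adam19 by at least 5.97-fold and Mmp23 at 3.72-fold. Another probe set of Mmp23 had a log2 ratio of only 0.22. Mmp10 was at least 5.28-fold higher with the mutant. Of the genes just named, Adam19, Nid2 and Tnc came out below 2-fold in 1 or more alternative settings.

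Of the contractile and actin genes, none was 2-fold lower with FOXOA3 and the others were higher or within 2-fold. In that list 9 of 21 measured genes (42.9%) were higher and 0 lower with FOXOA3, with a median of 0.81. Of the 18 above the floor on both arrays, 8 were higher and 0 lower. Transgelin (Tagln), an actin-binding protein of smooth muscle, had 9167, 902, 3238 and 728, 4.45-fold higher, and caldesmon (Cald1), one of the genes with the FOXO consensus, 13257, 2154, 9573 and 2760.3, 3.47-fold higher. In both, GFP vehicle was the brightest array and GFP FSH and the mutant were low. The actin crosslinker filamin A (Flna) was 3.77-fold higher, profilin (Pfn1) 3.51-fold, smooth muscle actin (Acta2) 2.77-fold and Csrp1 2.57-fold. Markers of theca, stroma and smooth muscle, many of them the same genes, had a summed signal of 29792, 16633, 33089.7 and 17632. Of 19 such markers 11 were above the floor with FOXOA3 and 6 with the mutant, and Cyp17a1, Insl3, Col1a1 and Pdgfrb were below it on both. In that marker list 6 of 11 measured (54.5%) were higher and 1 (9.09%) lower, against 19.0% and 9.24% of all measured genes. Only 6 were above the floor on both arrays, and of these 4 were higher and 1 lower. The part of these markers in the matrix and actin results was not tested, and in bulk RNA fewer cells of a type and less RNA per cell cannot be told apart. Alternative settings put Acta2 below 2-fold in at least 1 case.

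Markers of leukocytes, endothelium, oocytes and surface epithelium had low summed signals. Leukocyte markers had a summed signal of 3389.6, 2156, 5135 and 2373, 9 of 22 were above the floor with FOXOA3 and 4 with the mutant, and Ptprc was below it on both. Of 10 measured, 2 (20.0%) were higher with FOXOA3 and 0 lower, against 19.0% and 9.24% of all measured genes. The 2 were Cd14, with 2167, 727, 2577 and 1012, 2.55-fold higher, and Lyz2, with 376, 592, 1266 and 512, 2.47-fold higher. Endothelial markers summed to 1156, 844, 1346 and 1167, oocyte markers to 585, 1222, 1013 and 1567 and surface epithelium markers to 2376, 1458, 1559.7 and 1146. Luteal markers, several of them FSH-responsive genes of granulosa cells, summed to 22188, 106142, 57891 and 55582. The sums with the 2 FOXO1 forms were close, but 3 of 12 measured luteal markers (25.0%) were higher with FOXOA3 and 0 lower. Their median log2 ratio was 0.78, against 0.21 for all measured genes.

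Growth factor genes held large differences in both directions. Igf1, the growth factor that amplifies FSH action in the follicle, had 7579, 2437, 1636 and 7429. It was bright on GFP vehicle and with the mutant, and 4.54-fold lower with FOXOA3. Several of its binding proteins ran against it: Igfbp4 was 6.28-fold higher with FOXOA3, Igfbp5 5.61-fold and Igfbp6, another gene with the FOXO consensus, 2.91-fold from signals of 149.9, 62.5, 344 and 118. Its receptor Igf1r was 3.33-fold higher and the kinase Akt1 3.18-fold. Of the insulin and IGF list 7 of 22 (31.8%) were at least 2-fold higher with FOXOA3 and 2 (9.09%) at least 2-fold lower. Of all measured genes 19.0% were higher and 9.24% lower. The list median of 0.16 turned to -0.04 under centring. Not all alternative settings kept Igfbp4, Igfbp5 and Igfbp6 past 2-fold.

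In the TGF-beta, activin and BMP list 9 of 36 measured members (25.0%) were 2-fold or more higher with FOXOA3 and 4 (11.1%) lower, with a median of 0.47. The shares of all measured genes, for this list as for the WNT and Notch lists, were 19.0% and 9.24%. Of the 28 TGF-beta list members above the floor on both arrays, 6 were higher and 2 lower. The follistatin-like Fstl1 was 7.62-fold higher, Ltbp1, which stores latent TGF-beta, 5.56-fold, and the BMP target Id1 5.18-fold. The measured probe sets of Fstl1 had log2 ratios from 0.26 to 2.93. The inhibitor Smad7 was 5.21-fold higher with the mutant and the ligand Bmp3 at least 6.06-fold. Of the WNT list 7 of 25 measured genes (28.0%) were higher and 2 (8.0%) lower with FOXOA3. Wnt4, a ligand needed for ovarian development, had 706, 2050.4, 1351 and 309, with the mutant lowest and FOXOA3 4.37-fold above it. The secreted Dkk3 was 6.23-fold higher and the receptor Fzd2 5.36-fold, while the antagonist Frzb was 4.71-fold higher with the mutant. Of the Notch list 2 of 14 (14.3%) were at least 2-fold higher with FOXOA3 and 2 (14.3%) at least 2-fold lower, and its median of 0.15 turned to -0.05 under centring. Next to Hey1, the ligand Jag1 was 2.36-fold higher with the mutant, but the Notch target Hes1 was 2.19-fold higher with FOXOA3. Bmp3, Dkk3, Frzb, Fzd2, Hes1 and Smad7 did not pass 2-fold with 1 or more of the alternative settings.

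The epidermal growth factor-like ligands that carry the ovulatory signal split. Areg had 126, 3079, 1383 and 4537, 3.28-fold higher with the mutant and above GFP FSH as well. Ereg was at least 3.08-fold higher with FOXOA3. Akap12, a scaffold of protein kinase A, was at least 7.83-fold higher, and Prkaca, its catalytic subunit, 4.23-fold. Gonadotropin and cAMP genes as a list had 6 of 22 measured members (27.3%) higher and 1 (4.55%) lower, with a median of 0.19 that turned to -0.01 under centring. The shares of all measured genes were 19.0% and 9.24%. Of the immediate-early and KLF factors, 9 of 27 measured members (33.3%) were 2-fold or more higher with FOXOA3 and 2 (7.41%) lower. Besides Cebpb, the related Cebpa had 487, 1305, 1200.5 and 244, 4.93-fold higher, and the phosphatase Dusp1 was 4.27-fold higher. The orphan receptor Nr4a1, an early gene of gonadotropin action, was 2.38-fold higher with the mutant. Under at least 1 alternative setting of the processing, Akap12, Nr4a1 and Prkaca had a ratio below 2-fold.

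In the interferon response list 20 of 36 measured genes were 2-fold or more above GFP FSH with FOXOA3 and 19 of 35 with the mutant, and 0 were lower with either. Of all measured genes, 11.1% were higher than on GFP FSH with FOXOA3 and 12.5% with the mutant, and 6.99% and 19.1% were lower. Between the forms 1 of 36 measured genes (2.78%) was higher and 6 (16.7%) lower with FOXOA3, and the median was -0.17, below that of all genes under every setting run. Against GFP FSH the medians were 1.19 with FOXOA3 and 1.07 with the mutant. Isg15, a ubiquitin-like modifier, had 79.3, 154, 2103 and 4805, 2.28-fold higher with the mutant, and the transcription factor Irf7 329, 152, 1742 and 5623, 3.23-fold higher. The chemokine Cxcl10 had 110.3, 71.2, 699.8 and 2372, 3.39-fold higher. In these 3 genes both FOXO1 arrays were above both GFP arrays. Ifit3 was 3.65-fold higher with the mutant, the RNA sensor Ifih1 3.61-fold and the antiviral GTPase Mx1 3.06-fold. Mx1 was just above the floor with FOXOA3, at 107.3, and under it on GFP FSH, so that it was at least 1.07-fold higher there than on GFP FSH. Usp18 and Rsad2 were within 2-fold, at 1.14-fold in favour of FOXOA3, which turned to a log2 ratio of -0.01 under centring, and 1.33-fold in favour of the mutant. The higher member was Dhx58, a regulator of RNA sensing, at 2.21-fold. The NF-kB list had the opposite balance: 7 of 15 (46.7%) were at least 2-fold higher with FOXOA3 and 0 at least 2-fold lower, with a median of 0.63. Of the 11 above the floor on both arrays, 6 were higher and 0 lower. Between the forms the shares of all measured genes were 19.0% higher and 9.24% lower. The NF-kB subunits Rela and Nfkb2 were 4.15-fold and 3.26-fold higher with FOXOA3. Of class I antigen processing genes, 1 of 13 measured members (7.69%) was 2-fold or more higher with FOXOA3 and 0 lower, and the member was Tapbp at 2.24-fold. The 2-fold difference of Dhx58, Ifih1 and Tapbp was not held under every alternative setting.

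Most S phase and mitosis genes were 2-fold or more below GFP FSH with each FOXO1 form, 30 of 41 with FOXOA3 and 26 of 41 with the mutant. The shares of all measured genes that were lower differed between the forms, 6.99% with FOXOA3 and 19.1% with the mutant. Between the forms 2 of 41 measured genes (4.88%) were higher and 5 (12.2%) lower with FOXOA3, with a median of -0.06, and the medians against GFP FSH were -1.39 with FOXOA3 and -1.28 with the mutant. Rrm1, a subunit of ribonucleotide reductase, was 4.34-fold higher with the mutant, where it was also 2.12-fold above GFP FSH, and the mitotic kinase Ttk 2.22-fold. The kinase Cdk2 was 2.70-fold higher with FOXOA3 and topoisomerase Top2a 2.08-fold. Among G1 genes 7 of 18 (38.9%) were at least 2-fold higher with FOXOA3 and 1 (5.56%) at least 2-fold lower, against 19.0% and 9.24% of all measured genes. Cyclin D2 (Ccnd2), which drives granulosa cell division, had 2878, 6379, 2831 and 1132, 2.50-fold higher with FOXOA3, and the inhibitor Cdkn1b, a FOXO target, was 1.23-fold higher with the mutant. The transcription factor E2f5 was 3.18-fold higher with the mutant. Of the BCL2 family and caspases 3 of 22 measured members (13.6%) were 2-fold or more higher with FOXOA3 and 2 (9.09%) lower. Neither share was above that of all measured genes. The largest ratio was that of Casp4 at 3.84-fold higher with the mutant. Of the genes just named, Casp4, Cdk2, Top2a and Ttk came out below 2-fold in 1 or more alternative settings.

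Antioxidant enzymes favoured FOXOA3 with none lower by 2-fold. 11 of 33 measured genes (33.3%) were higher and 0 lower with FOXOA3, against 19.0% and 9.24% of all measured genes. The median of 0.85 lay above that of all genes by 0.43 to 0.69 over the alternative settings. Against GFP FSH the medians were -0.42 with FOXOA3 and -1.08 with the mutant. Next to Selenop and Sod2, the peroxiredoxin Prdx6 was 3.72-fold higher, the glutathione transferase Mgst3 3.28-fold, mitochondrial thioredoxin reductase (Txnrd2) 2.76-fold, Gpx7 2.60-fold and mitochondrial thioredoxin (Txn2) 2.57-fold. Of the chaperones of the endoplasmic reticulum 6 of 23 (26.1%) were at least 2-fold higher with FOXOA3 and 1 (4.35%) at least 2-fold lower, with a median of 0.51. Of the ATF4 amino acid stress genes 6 of 28 measured members (21.4%) were 2-fold or more higher with FOXOA3 and 0 lower, a share higher near that of all measured genes. The higher members were led after Cebpb by the amino acid transporter Slc7a5 at 4.20-fold. Of the autophagy genes 5 of 25 measured genes (20.0%) were higher and 1 (4.0%) lower with FOXOA3, with a median of 0.20, a median and a share higher near those of all genes, and the protease Ctsd was 3.36-fold higher. Alternative settings put Prdx6 and Txnrd2 below 2-fold in at least 1 case.

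In glycolysis and lactate export 4 of 21 (19.0%) were at least 2-fold higher with FOXOA3 and 1 (4.76%) at least 2-fold lower, a share higher near that of all measured genes, with hexokinase Hk1 2.81-fold higher. In oxidative phosphorylation 2 of 38 measured members (5.26%) were 2-fold or more higher with FOXOA3 and 2 (5.26%) lower, with a median of 0.06 that turned to -0.15 under centring, and the complex I subunit Ndufa5 was 3.06-fold higher with the mutant. Core proteasome subunits had a median of -0.22, which turned to 0.03 under both quantile normalization and loess. The 12 measured reference genes had a median of -0.34, which turned to 0.15 under quantile normalization and 0.14 under loess. Among these genes Gusb was 2.76-fold higher and Tbp 2.12-fold lower with FOXOA3. Not all alternative settings kept Hk1 past 2-fold.

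**Figure D5:**
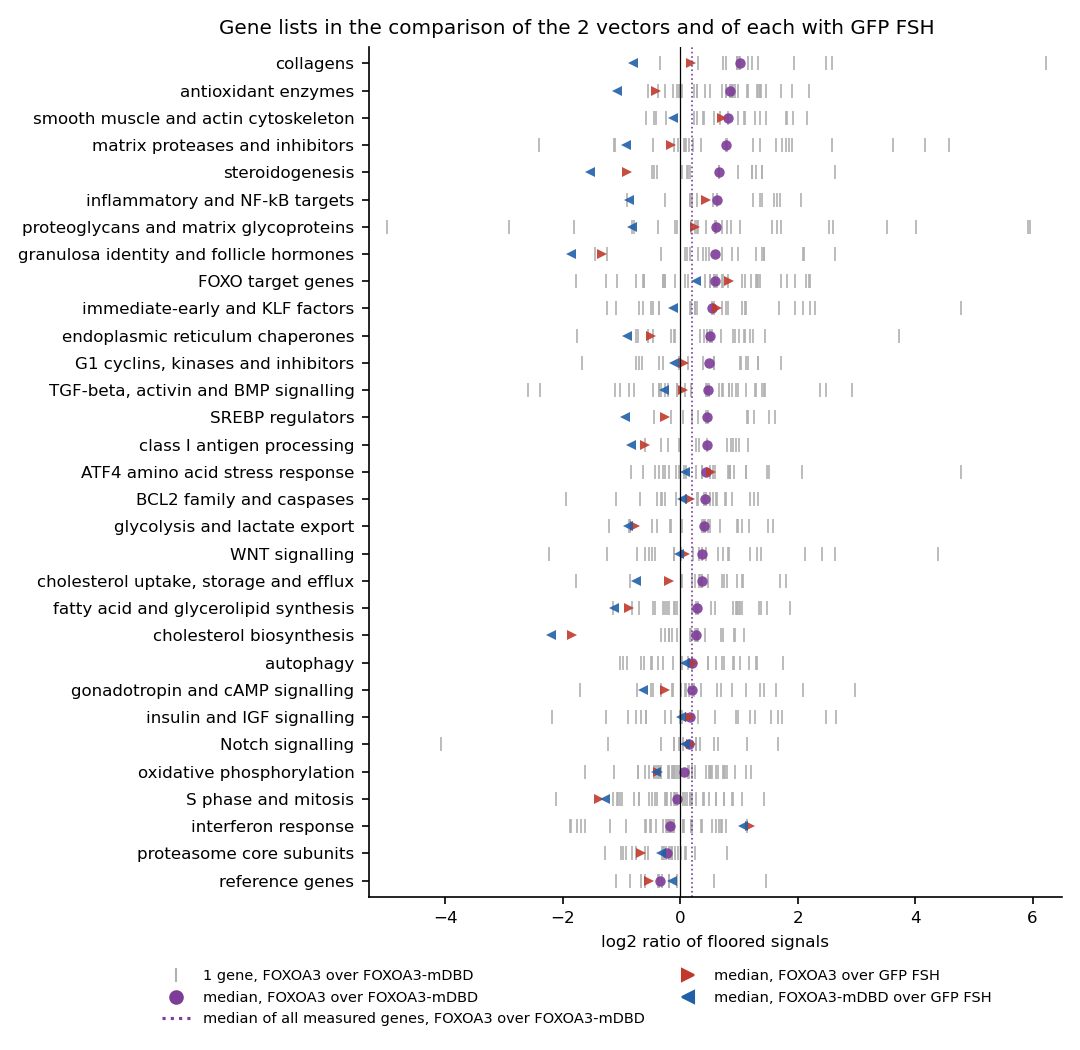
Log2 ratios of floored signals by gene list: ticks are single genes for FOXOA3 over FOXOA3-mDBD, circles their median, and triangles the list medians of each vector over GFP FSH, with the all-gene median of 0.21 as a dotted line. The circles of collagens and antioxidant enzymes lie above that line and those of interferon response and S phase genes below it, while both triangles lie far below 0 for cholesterol biosynthesis.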

How the data were processed

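Gene expression was measured on 4 arrays, 1 per group, and 2 of them were compared. The authors deposited linear intensity values, 1 for each probe set and array, and MAS5 is the tool named by the submitters' processing notes. MAS5 subtracts mismatch probe signals and scales each array to a common mean, so ratios of dim probe sets are noisy and a difference in total RNA per cell is hidden. Its version and settings are not stated in these notes.

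Samples were grouped by the vector and agent in the labels. Of 31099 probe sets, 20832 had exactly 1 symbol in the platform annotation, 436 had several and 9780 none. Of the 20832, 6 were control probe sets and were left out. Identifiers matched RefSeq's gene table for 99.7%, with 0 symbols changed. The probe set with the highest mean over the 4 arrays stood for a gene. Before log2 was taken, signals under 100.5 were raised to that value. The 2% trimmed means of the arrays were within 1 unit of each other, so no further scaling was applied. No p-value was computed with 1 array a side, and precision is limited by the number of arrays.

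Named were the 12 largest ratios in each direction with both arrays above the floor, the 8 largest at a bound, a fixed panel and, in each of 38 lists, the 6 largest members past 2-fold. The comparison, members and lists were chosen with earlier results of these data known. Other list members, such as Sesn1, Lamc1 or Mmp14, were named after their values were seen, as were the comparisons of GFP vehicle with GFP FSH and of FOXOA3 FSH with GFP vehicle. Of 1008 list entries, 920 were named on the array and 88 were not analysed here. Alternatives were floors at the 25th and 75th percentile, quantile normalization, median centring, loess with a span of 0.3, the mean of probe sets, both arrays above the floor, a 3-fold threshold and counting probe sets. Promoter sequences came from RefSeq (GRCr8). Steps were tested on simulated data, with pandas 2.3.3, numpy 2.4.6, statsmodels 0.14.6 and scipy 1.17.1 in Python 3.11.15.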

Additional observations from a re-analysis of the deposited data

How the results depend on the processing

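With 1913 genes higher and 932 lower at 2-fold, the counts stayed within 1.5 times under the floor at the 25th percentile, quantile normalization, median centring, the mean of probe sets, both arrays above the floor and counting probe sets. They were 666 higher and 379 lower at 3-fold and 668 higher and 587 lower with the floor at the 75th percentile, which tests fewer genes, and 1034 higher and 1304 lower after loess. Plin2 turned from a log2 ratio of 1.06 to -0.26 when its probe sets were averaged. Of the 191 named genes that were 2-fold apart, 110 stayed past 2-fold under every alternative that measured them and 81 did not, and 190 kept their sign. Averaging draws a gene toward 0 by construction where another of its probe sets is at the floor. The all-gene median of 0.21 became 0 under centring and 0.02 under loess, and list medians as far from 0 as -0.34 (reference genes) turned sign under a scaling. No paired analysis was possible because each group had 1 array and no replicate number, and for the same reason no replicate could be left out. Dim genes limit the comparison: 1487 of 10092 measured genes had the dimmer signal at the floor.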
